A study of Mus musculus with 77 samples.

Results

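A set of 32 nuclear genes of respiratory complexes II, III and IV were followed in brain and blood of mice exposed to chronic social defeat stress (CSDS). They were chosen by symbol from both gene expression tables and comprised 4 subunits of complex II, 9 of complex III, 11 of complex IV, the supercomplex factor Cox7a2l and 7 assembly factors of complex IV. All 32 were present among the 16587 genes of the brain table and among the 13084 genes of the blood table. In CSDS an experimental male meets a CD-1 aggressor each day for 10 days and otherwise lives beside it behind a perforated divider, and controls live beside another mouse without physical contact. Defeated mice are called susceptible or resilient from their social interaction ratio relative to controls of their own strain, and the mice profiled were taken from the extremes of that measure.

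The brain libraries came from the bed nucleus of the stria terminalis, abbreviated BNST, a forebrain region that regulates anxiety, of C57BL/6Crl males (B6) that were 8 weeks old at dissection. Each library held messenger RNA that was co-precipitated with Argonaute 2 (AGO2), the protein that carries microRNAs to their targets, from a pool of 3 mice. There were 5 control, 5 resilient and 4 susceptible pools. Input RNA of these pools was not analysed here, so a change in AGO2-bound RNA and a change in the tissue level of the same mRNA cannot be told apart. The blood libraries each came from the trunk blood of 1 mouse after globin and ribosomal RNA depletion, with 5 control, 5 resilient and 5 susceptible B6 males and 5 control and 5 susceptible DBA/2Crl males (D2), also 8 weeks old. In both tissues RNA was taken about a week after the last defeat, and being bulk samples they do not tell fewer cells of a type from less RNA per cell.

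Complex II (succinate dehydrogenase) feeds electrons from the tricarboxylic acid cycle into ubiquinone, complex III passes them on to cytochrome c, and complex IV (cytochrome c oxidase) transfers them to oxygen. Complexes III and IV pump protons as they do so, and ATP synthase uses the gradient that results. Complex III and complex IV also contain subunits encoded by mitochondrial DNA, whereas all complex II subunits are nuclear, so building complexes III and IV needs transcripts of both genomes. Neurons depend heavily on this chain, and mature red cells lose their mitochondria while reticulocytes still hold some.

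The 14 BNST libraries held 3701281 to 10659882 gene-assigned reads and the 25 blood libraries 9751603 to 15878495. All values are log2 CPM (read counts scaled to the effective size of each library) with an offset of 0.5 reads. A difference of 1 is a 2-fold change. The effective size was 0.912 to 1.08 times the gene-assigned reads in BNST and 0.644 to 1.53 times in blood libraries. A gene was called in a comparison when limma gave an unadjusted p under 0.05 together with a fold change of at least 1.2, which is the rule of the study, and p-values adjusted over all genes of the table are given beside it. The exact permutation test over samples (two-sided) is given for single genes, and its smallest possible p was 0.00794 in each comparison of 2 groups, apart from D2 blood without the 2 mice named next, where 4 against 4 mice allow no p below 0.0286. For 2 of the D2 mice, control replicate 2 and susceptible replicate 2, the phenotype in the sample label and the phenotype letter in the column name of the table contradict each other. D2 results are therefore given by label, by column name and without both mice. Blood sample titles also carry a prefix, EC3 or EC4 for B6 and ED3, ED4 or ED6 for D2, whose meaning the labels do not state.

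Members differed widely in abundance when expressed per kilobase of annotated exon, counted over all annotated exons of a gene. This length can far exceed a single transcript, as for Uqcrc1 (4135 bases of exon, longest coding transcript 1653) and Cox6c (3567 and 738). The order of members below holds for this length and can change with another. In BNST controls Cox6b1, a subunit on the outer side of complex IV, was highest at a level of 48.4 CPM per kb, followed by Sdha, the flavoprotein of complex II. The copper chaperone Sco2 was lowest at a level of 1.19 CPM per kb. The median level was 33.8 CPM per kb for complex IV subunits, 22.7 for complex III, 16.5 for complex II and 8.05 for the assembly factors. In B6 control blood Uqcrh, the hinge protein of complex III, led with a level of 222 CPM per kb, followed by the complex IV subunits Cox6a1 at 166 and Cox8a at 162. Medians in that blood were 62.9 CPM per kb for complex IV, 22.5 for complex III, 16.6 for complex II and 2.15 for the assembly factors.

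Promoter sequences are shown for the 4 members with the steadiest difference in the BNST and for a pair of blood members described further on, because respiratory genes are classical targets of the factors NRF1, GABP (an ETS factor) and YY1. The sequences are from RefSeq on GRCm38.p6, run 5′ to 3′ on the strand of the gene from 250 bases before to 50 after its start, and were found for 24 of the 32 members. Capitals mark matches on either strand to GCGCANGCG (NRF1), CCGGAAG (ETS) or AAGATGG (YY1). NRF1 matches on opposite strands can overlap, as in Cox6a1.

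Cox8a, chr19:7217567-7217866, minus strand: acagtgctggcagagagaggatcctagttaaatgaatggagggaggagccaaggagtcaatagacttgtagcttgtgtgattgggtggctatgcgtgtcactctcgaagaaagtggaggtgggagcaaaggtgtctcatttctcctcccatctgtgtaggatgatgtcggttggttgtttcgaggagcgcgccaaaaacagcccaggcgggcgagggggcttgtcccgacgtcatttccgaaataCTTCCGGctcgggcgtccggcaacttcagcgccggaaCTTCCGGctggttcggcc
Sdhd, chr9:50603800-50604099, minus strand: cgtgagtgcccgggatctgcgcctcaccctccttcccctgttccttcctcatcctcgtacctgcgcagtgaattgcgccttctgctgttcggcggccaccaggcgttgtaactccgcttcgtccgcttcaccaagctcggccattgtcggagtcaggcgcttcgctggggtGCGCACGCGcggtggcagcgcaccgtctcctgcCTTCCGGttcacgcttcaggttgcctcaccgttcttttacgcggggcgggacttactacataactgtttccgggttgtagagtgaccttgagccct
Uqcrfs1, chr13:30545267-30545566, minus strand: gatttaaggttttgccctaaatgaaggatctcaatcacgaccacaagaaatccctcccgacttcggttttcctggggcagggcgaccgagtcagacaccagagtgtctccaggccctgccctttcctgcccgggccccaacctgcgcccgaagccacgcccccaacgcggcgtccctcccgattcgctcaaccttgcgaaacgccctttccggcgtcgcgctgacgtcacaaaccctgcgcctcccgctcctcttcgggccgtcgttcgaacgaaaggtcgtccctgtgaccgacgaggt
Cox5a, chr9:57520982-57521281, plus strand: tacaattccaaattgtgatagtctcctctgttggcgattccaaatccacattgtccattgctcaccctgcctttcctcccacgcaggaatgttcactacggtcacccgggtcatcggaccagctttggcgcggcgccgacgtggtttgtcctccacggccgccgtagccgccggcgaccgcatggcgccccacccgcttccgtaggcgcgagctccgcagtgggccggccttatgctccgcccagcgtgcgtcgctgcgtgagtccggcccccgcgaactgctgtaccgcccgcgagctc
Cox6a1, chr5:115348909-115349208, minus strand: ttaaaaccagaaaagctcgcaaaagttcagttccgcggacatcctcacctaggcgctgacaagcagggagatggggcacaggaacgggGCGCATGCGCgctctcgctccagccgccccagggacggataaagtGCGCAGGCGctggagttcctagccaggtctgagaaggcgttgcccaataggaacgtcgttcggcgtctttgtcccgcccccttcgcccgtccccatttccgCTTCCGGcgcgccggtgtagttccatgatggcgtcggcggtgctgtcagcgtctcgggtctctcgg
Uqcrh, chr4:116075021-116075320, minus strand: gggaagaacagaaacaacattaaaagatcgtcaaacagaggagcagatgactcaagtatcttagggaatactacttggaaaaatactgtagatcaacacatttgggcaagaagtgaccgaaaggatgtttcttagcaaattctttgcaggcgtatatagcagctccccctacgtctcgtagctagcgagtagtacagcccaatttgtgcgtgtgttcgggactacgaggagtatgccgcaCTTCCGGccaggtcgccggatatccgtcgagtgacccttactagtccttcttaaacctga

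Cox8a had 2 ETS matches, both on the opposite strand and beginning 5 bases before and 32 bases after the start, and Sdhd had an NRF1 match 79 bases and an ETS match 46 bases before it. No match lay in the windows of Uqcrfs1 and Cox5a. Among the 24 members with a sequence, 5 (20.8%) held the NRF1 letters, 11 (45.8%) the ETS letters and 2 (8.33%) the YY1 letters, and 14 held any of them. The corresponding shares of all 32851 promoter windows were 6.25%, 8.86% and 6.34%. These matches are descriptions of letters and do not identify a bound site.

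To ask how CSDS related to AGO2-bound respiratory transcripts in the BNST, resilient and susceptible pools were each compared with controls. In resilient pools 5 members were called lower (9.04% of all genes), namely Cox8a, Cox5a and Cox5b of complex IV, Uqcrfs1 of complex III and Sdhd of complex II, and Cox10 was called higher (8.65% of all genes). In susceptible pools the members called lower were the same 5 (9.28% of all genes), and none was called higher. Both comparisons use the same 5 control pools. In the table as a whole 17.7% of genes were called between resilient and control pools and 18.9% between susceptible and control pools, so that the 6 of 32 and 5 of 32 members called were near that background. In neither comparison did a member pass an adjusted p of 0.05 with limma, as 1.95% and 4.02% of all genes did, although 6 and 5 members had an unadjusted p under 0.05. Weighting the pools by quality in limma gave 2 members with an adjusted p under 0.05 in resilient pools (6.71% of all genes) and 4 in susceptible pools (8.61% of all genes).

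Cox8a, a small transmembrane subunit of complex IV, stood at 3.84, 4.05, 4.71, 4.81 and 4.54 in the control pools. It stood at 3.76, 3.40, 3.94, 3.46 and 3.65 in the resilient and at 3.63, 4.02, 3.74 and 3.13 in the susceptible pools. Controls were higher on average, but their lowest pool lay within the range of each defeated group. Against controls the level was 1.68-fold lower in resilient pools (log2 difference -0.745, SE 0.202, limma adjusted p = 0.0589, exact permutation p = 0.0159). In susceptible pools it was 1.69-fold lower (log2 difference -0.758, SE 0.214, limma adjusted p = 0.0546, exact permutation p = 0.0397). Cox8a rested on 42 to 164 reads per pool.

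Uqcrfs1, the Rieske iron-sulfur protein at the catalytic centre of complex III, measured 4.04, 3.82, 4.45, 4.08 and 4.25 in controls. Resilient pools measured 3.11, 3.62, 4.01, 3.70 and 3.39, and susceptible pools 3.90, 3.31, 3.64 and 3.44. A single pool of each defeated group lay above the lowest control. The log2 difference was -0.56 in resilient pools (SE 0.176, limma adjusted p = 0.0927) and -0.56 in susceptible pools (SE 0.186, limma adjusted p = 0.0968).

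Cox5a, a nuclear subunit on the matrix side of complex IV, separated controls from both defeated groups. Control pools lay at 4.95, 4.90, 5.16, 5.10 and 5.03. Resilient pools lay at 4.58, 4.51, 4.49, 4.85 and 4.71 and susceptible pools at 4.77, 4.31, 4.57 and 4.80, so every defeated pool was below every control. The differences were -0.40 in resilient pools (SE 0.117, limma adjusted p = 0.0764) and -0.41 in susceptible pools (SE 0.124, limma adjusted p = 0.0693), each with the smallest exact permutation p of 0.00794.

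Sdhd, a membrane anchor of complex II, was measured at 4.20, 4.57, 4.49, 4.44 and 4.43 in controls. The resilient pools gave 3.94, 3.97, 4.29, 3.99 and 4.16 and the susceptible pools 4.17, 3.81, 4.08 and 3.97. All susceptible pools were below all controls, whereas 1 resilient pool exceeded the lowest control. Its log2 difference was -0.35 in resilient pools (SE 0.121, limma adjusted p = 0.116) and -0.42 in susceptible pools (SE 0.128, limma adjusted p = 0.0724). The calls of Cox8a, Uqcrfs1, Cox5a and Sdhd held in both comparisons whichever of the 14 pools was left out.

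**Figure D1:**
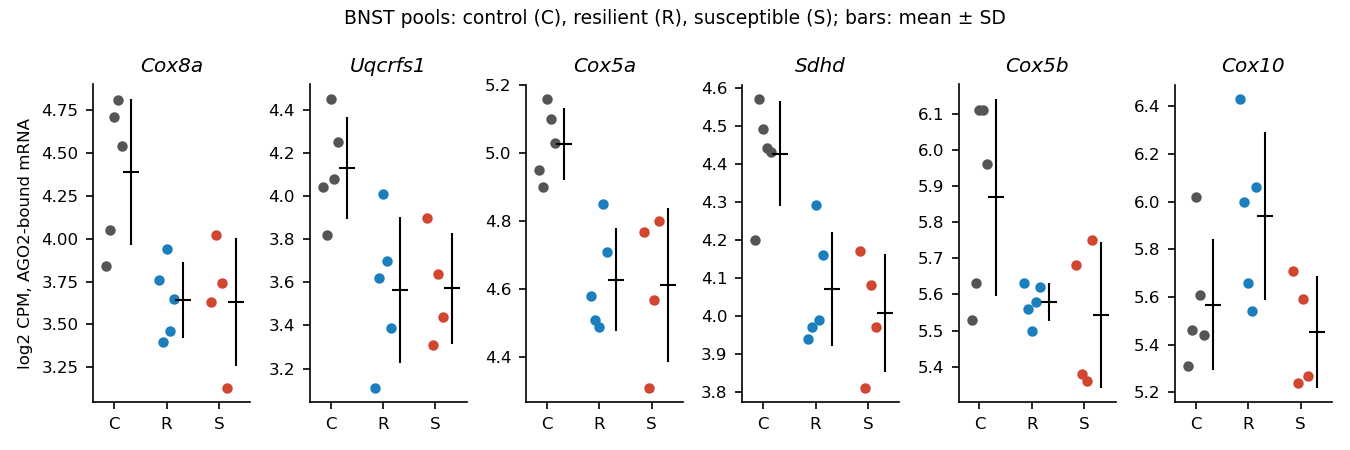
Log2 CPM of the members called in the BNST comparisons in each AGO2 pool of 3 B6 mice, by group, with group means and SD. Every control pool of Cox5a (4.90 to 5.16) lies above every resilient and susceptible pool (4.31 to 4.85), while the groups of Cox10 overlap.

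Cox5b, the zinc-binding subunit of complex IV, was called less firmly. Its controls spread from 5.53 to 6.11, its resilient pools from 5.50 to 5.63 and its susceptible pools from 5.36 to 5.75. Differences were -0.29 in resilient pools (SE 0.122, limma adjusted p = 0.190) and -0.32 in susceptible pools (SE 0.130, limma adjusted p = 0.162), and 4 of the 14 fits that omitted a pool lost the call in each comparison. The pool omitted then always belonged to a compared group. Cox5b shares 57.8% of its transcript with near-identical copies elsewhere in the genome, so its read count is uncertain.

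Cox10, which farnesylates heme on the way to the heme of complex IV, was the one member called higher. Controls measured 5.31, 5.46, 6.02, 5.61 and 5.44, resilient pools 6.43, 6.00, 5.66, 5.54 and 6.06, and susceptible pools 5.71, 5.24, 5.59 and 5.27. Resilient pools were higher than controls by 0.37 (SE 0.165, limma adjusted p = 0.216). This call was lost in 7 of the 14 fits that each left out a single pool (difference then 0.25 to 0.38). The pool left out then always belonged to the resilient or the control group. Susceptible pools were lower than resilient pools by 0.48 on the log2 scale (SE 0.175, limma adjusted p = 1.00, exact permutation p = 0.0714), a call kept whichever pool was left out. Between susceptible and resilient pools this was the only member called, against 2.14% of all genes.

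The groups of subunits can be described by their direction. Subunits measured in the same pools are not independent of each other, so a count of directions is not a test. In susceptible pools all 11 complex IV subunits had a log2 difference below 0, from -0.76 to -0.12 with a median of -0.25, and 3 of them were called. The median was -0.13 over complex III, -0.11 over complex II and -0.05 over the assembly factors, of which none was called. Cox11, a copper chaperone of complex IV, had the smallest p of that last group, with a difference of -0.17 (SE 0.129, limma adjusted p = 0.472). In resilient pools 10 of 11 complex IV subunits lay below 0, with a median of -0.14 (median over all 32 members -0.09). For comparison the median over all genes was -0.01 in susceptible and -0.02 in resilient pools. Groups did not overlap for 1 member in resilient pools (5.18% of all genes) and for 4 members in susceptible pools, 1 of them higher (10.95% of all genes).

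Other genes of oxidative phosphorylation were read in the same comparisons. Of 36 complex I subunits, 3 were called lower and none higher in resilient pools, and 5 lower and 1 higher in susceptible pools, with medians of -0.09 and -0.10. ATP synthase subunits had 1 of 16 called lower in each comparison, and all 16 lay below 0 in susceptible pools, again without being independent of each other. Transcripts of mitochondrial DNA showed no call among 7 in resilient pools (median 0.03). In susceptible pools 3 of those 7 were called lower (median -0.49), among them mt-Nd5 and mt-Nd4, core subunits of complex I. The same count of 3 was called lower between susceptible and resilient pools, with a median of -0.45. Among 17 other complex IV assembly factors 3 were called lower in susceptible and 2 in resilient pools, led by Cox14, which stabilises newly made Cox1, at -0.67 in susceptible pools (SE 0.18, limma adjusted p = 0.0470) and -0.53 in resilient pools.

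Markers of other cell types moved in the same pools, and their part in these results was not tested. All 8 neuronal markers were measured, and their summed level was 11.09 to 11.26 in controls, 10.95 to 11.11 in resilient and 10.68 to 11.09 in susceptible pools, with 1 of 8 and 4 of 8 called lower. Of 8 choroid plexus markers 1 was called lower in resilient and 6 in susceptible pools (median -1.80), their summed level being 7.13 to 8.55 in controls and 7.16 to 8.09 in susceptible pools. Of 8 oligodendrocyte markers 2 were called lower and 1 higher in resilient pools and 3 lower and 1 higher in susceptible pools, with summed levels of 11.85 to 12.40 in controls, 11.20 to 12.15 in resilient and 11.15 to 11.87 in susceptible pools. The summed level of 8 astrocyte markers was 10.63 to 10.87 in controls, 10.50 to 10.67 in resilient and 10.20 to 10.58 in susceptible pools, the last without overlap with controls, and 3 of these markers were called lower and 1 higher in susceptible pools. No marker of these lists was at 0 in every library.

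**Figure D2:**
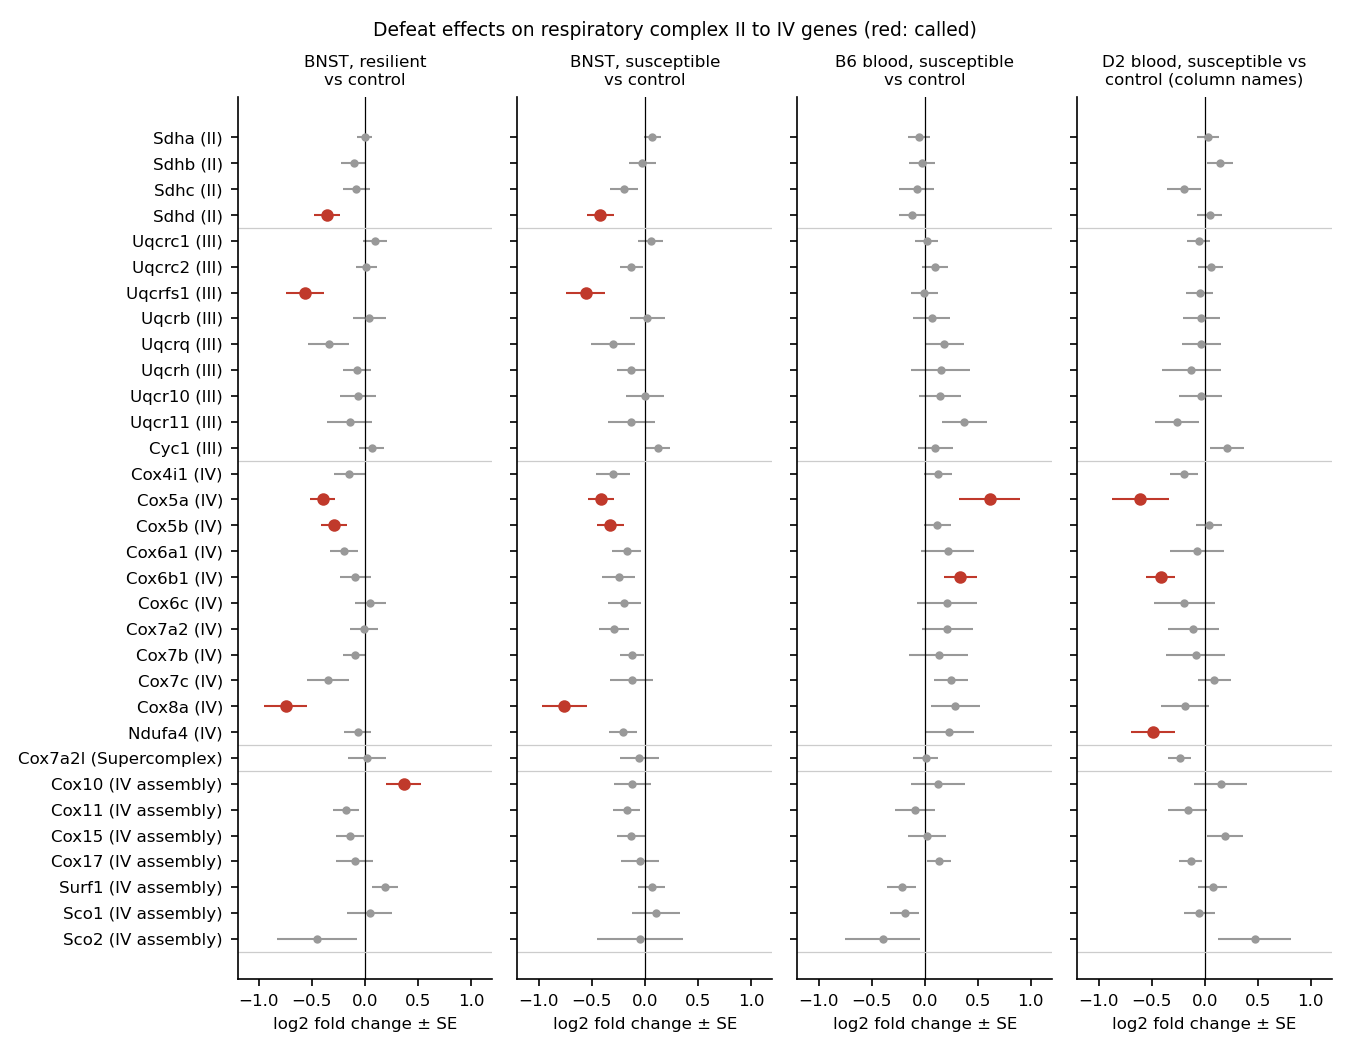
Log2 fold change from controls with SE (horizontal axis) for each of the 32 members, ordered by complex, in resilient and susceptible BNST pools, susceptible B6 blood and susceptible D2 blood grouped by column names, with called members in red. Complex IV subunits of susceptible animals lie below 0 in the BNST (-0.76 to -0.12) and above 0 in B6 blood (0.12 to 0.61).

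In blood of B6 mice the members were compared between the same phenotypes, with single mice as replicates. Susceptible mice had 2 members called higher, Cox5a and Cox6b1, and resilient mice had Uqcr11 called higher and Sco1 called lower. The calls covered 4.50% of all genes between susceptible and control mice and 2.11% between resilient and control mice, against 2 of 32 members in each. No member or other gene passed an adjusted p of 0.05 with limma, and the members called were all that had an unadjusted p under 0.05. None was called between susceptible and resilient mice with limma, where none had an unadjusted p under 0.05 and 2.03% of all genes were called.

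Cox5a stood at 6.31, 5.18, 6.41, 6.83 and 6.07 in B6 control mice. Resilient mice had 6.71, 6.46, 7.18, 6.08 and 6.22 and susceptible mice 6.97, 6.27, 7.37, 6.50 and 6.73. The groups overlapped, and 1 control mouse lay well below all others. The difference between susceptible and control mice was 0.61 (SE 0.288, limma adjusted p = 0.968, exact permutation p = 0.0952).

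Cox6b1 was measured at 5.49, 5.15, 5.57, 5.77 and 5.41 in control, 6.09, 5.71, 5.91, 5.50 and 5.51 in resilient and 5.87, 5.52, 6.11, 5.72 and 5.84 in susceptible mice. Susceptible mice were higher by 0.33 (SE 0.156, limma adjusted p = 0.968, exact permutation p = 0.0476), with overlap between the groups. Uqcr11, a small subunit of complex III, ranged from 4.24 to 4.81 in control and from 4.50 to 5.47 in resilient mice, a difference of 0.485 (SE 0.214, limma adjusted p = 0.986, exact permutation p = 0.0873). It shares 85.4% of its transcript with a near-identical copy, which leaves its count uncertain. Sco1, a copper chaperone for the CuA site of complex IV, ranged from 2.83 to 3.38 in control and from 2.49 to 3.13 in resilient mice, a difference of -0.32 (SE 0.140, limma adjusted p = 0.986). Each of these 4 calls was lost in 5 or 6 of the 25 fits that each left out a single mouse. Every loss came from leaving out a mouse of the groups compared, which held 5 mice each. Without resilient replicate 5 there were 9 members called between resilient and control mice, against 8.61% of all genes.

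All 11 complex IV subunits had a difference above 0 in susceptible B6 mice (0.12 to 0.61, median 0.22) and in resilient B6 mice (0.16 to 0.43, median 0.27), both relative to the same controls. As subunits measured in the same mice are not independent, this count of directions is a description and not a test. The medians over complex II were -0.06 and -0.01. Over all 32 members the median was 0.12 in susceptible and 0.15 in resilient mice, and over all genes 0.02 in each. Platelet markers moved alongside, with 6 of 10 called higher in susceptible mice (median 0.86) and a summed level of 10.93 to 12.85 in control, 12.08 to 13.16 in resilient and 12.23 to 13.72 in susceptible mice. None of 11 erythroid markers was called in either comparison, and no marker of either list was at 0 in every library.

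The B6 comparisons differed between title prefixes. This split and the fit that compared the prefixes were chosen after seeing the data, with 2 or 3 mice per group and prefix. With prefix EC3 (2 control, 3 resilient and 2 susceptible mice) 10 of 32 members were called lower in susceptible than in resilient mice, against 12.1% of all genes called lower. With prefix EC4 (3 control, 2 resilient and 3 susceptible mice) 14 members were called higher, against 13.6% of all genes called higher. The medians were -0.26 and 0.26. Resilient against control mice gave 11 members called higher and 1 lower with EC3, where 15.6% of all genes were called, and 1 called lower with EC4, where 4.83% were called. Tested in a single limma fit, this effect was lower with EC4 than with EC3 for 12 members, against 15.1% of all genes. In the same fit the difference of susceptible from resilient mice was called higher with EC4 than with EC3 for 16 of 32 members against 18.9% of all genes, 11 of the members with an adjusted p under 0.05, as 16.6% of all genes had. These 16 were 10 of 11 complex IV subunits (median 1.16) and 6 of 9 complex III subunits (median 0.78). None of the 4 complex II subunits (median 0.07), the 7 assembly factors (median 0.00) or Cox7a2l was called.

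Cox7b, a small complex IV subunit encoded on the X chromosome, illustrates the split. With EC3 it stood at 7.18 and 6.70 in control, at 8.02, 7.80 and 7.50 in resilient and at 6.85 and 6.85 in susceptible mice. With EC4 it stood at 7.03, 7.24 and 7.49 in control, at 6.87 and 6.45 in resilient and at 7.87, 7.19 and 7.54 in susceptible mice. Resilient mice were thus the highest group with one prefix and the lowest with the other, and the change between prefixes in the difference of susceptible from resilient mice was 1.80 (SE 0.330, limma adjusted p = 0.0236). Near-identical sequence elsewhere covers 46.0% of its transcript.

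Uqcrh followed the same order, at 9.05, 8.97 and 8.50 in EC3 resilient and 7.90 and 7.89 in EC3 susceptible mice, then at 8.11 and 7.31 in EC4 resilient and 8.78, 8.16 and 8.53 in EC4 susceptible mice. Its change between prefixes was 1.73 (SE 0.388, limma adjusted p = 0.0236), and that of Cox6c, another small complex IV subunit, was 1.81 (SE 0.399, limma adjusted p = 0.0236). Sdhb, the iron-sulfur subunit of complex II, had overlapping groups with both prefixes. It lay at 4.79 to 4.99 in EC3 resilient, 4.96 to 5.04 in EC3 susceptible, 4.82 to 5.22 in EC4 resilient and 4.66 to 5.12 in EC4 susceptible mice.

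Erythroid markers followed the prefixes too. Of 11 such markers 10 had a susceptible against resilient difference that was called higher with EC4 than with EC3 (median 1.93), while none of 10 platelet markers did. With EC3 the summed erythroid level was 17.32 to 17.83 in resilient and 16.41 to 16.48 in susceptible mice, and with EC4 it was 15.67 to 16.74 and 16.70 to 17.73. Of other respiratory genes 13 of 36 complex I subunits, 9 of 16 ATP synthase subunits and none of 7 mitochondrially encoded transcripts were called. The ratio of effective size to gene-assigned reads differed as well. With EC3 it was 0.644, 0.650 and 0.813 in resilient and 0.979 and 1.16 in susceptible mice. With EC4 it was 1.10 and 1.47 in resilient and 0.651, 1.10 and 0.751 in susceptible mice. The part of this scaling in the prefix differences was not tested. With the title prefix as a block in the limma fit no member was called, by label, in any blood comparison of the phenotypes.

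**Figure D3:**
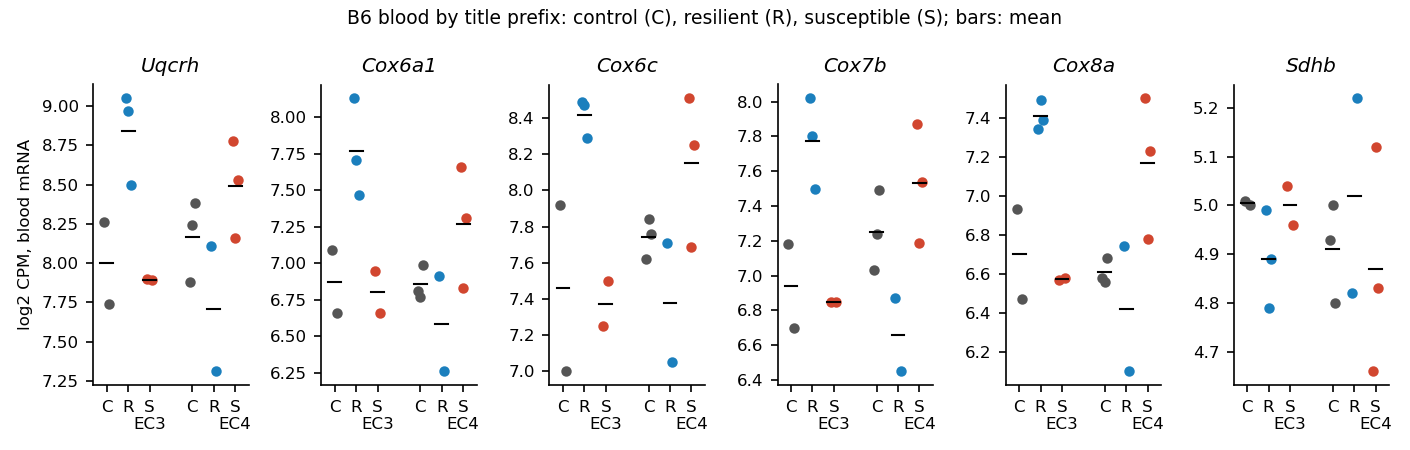
Log2 CPM (vertical axis) of 6 members in each B6 mouse, split by title prefix (EC3, EC4) and by group, with bars at the means. Resilient mice of Cox7b lie at 7.50 to 8.02 with EC3 and at 6.45 to 6.87 with EC4, whereas Sdhb lies between 4.66 and 5.22 in all 15 mice.

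The level of each member was then related to the summed level of erythroid and of platelet markers across mice, in 128 relations (32 members, both marker lists, both strains). Members and markers come from the same library and share its scaling. In the 15 B6 mice Uqcrh followed the erythroid sum with Pearson's r = 0.958 and Spearman's rho = 0.904 (permutation p adjusted over all relations 0.000183 and 0.000549), and with r = 0.926 without the 2 mice farthest from the median. Cox7b (r = 0.939, rho = 0.907) and Cox6a1 (r = 0.932, rho = 0.907) did likewise, with r of 0.916 and 0.906 without those 2 mice. The median r was 0.84 over complex IV subunits and 0.59 over complex III, but -0.26 over complex II and -0.26 over assembly factors, beside -0.10 over all genes. An r above 0.7 was found for 16.62% of all genes.

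This relation uses no phenotype, so the contradictory labels do not touch it. In the 10 D2 mice Cox8a (r = 0.935, rho = 0.927, adjusted permutation p = 0.00158 for r, r = 0.894 without 2 mice) and Uqcrh (r = 0.890, rho = 0.842, adjusted permutation p = 0.00617 for r, r = 0.790 without 2 mice) also followed the erythroid sum. After adjustment 14 of 32 members had a permutation p under 0.05 for r in B6 mice, 2 of them with a negative r (Sdhb and Cox15), and 11 of 32 in D2 mice, 1 of them with a negative r (Sco1). The median r in D2 mice was 0.75 over complex IV subunits (-0.35 to 0.94) but only 0.24 over complex III. It was -0.48 over complex II and -0.52 over assembly factors. Cox7b (r = 0.790) and Cox6a1 (r = 0.813) had an r of 0.625 and 0.655 without 2 mice. Over all genes in D2 mice the median r was -0.16, and 15.99% had an r above 0.7.

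Cox5a and Cox6b1 followed platelet markers. Cox5a had r = 0.976 and rho = 0.929 in B6 mice (adjusted permutation p = 0.000183 for r, r = 0.934 without 2 mice) and r = 0.943 and rho = 0.939 in D2 mice (adjusted permutation p = 0.000284 for r, r = 0.912 without 2 mice). For Cox6b1 the values were r = 0.901 and rho = 0.900 in B6 and r = 0.923 and rho = 0.855 in D2 mice, with r of 0.808 and 0.910 without 2 mice. Ndufa4, once counted to complex I and now placed in complex IV, had r = 0.758 in B6 and r = 0.788 in D2 mice with the platelet sum, and r = 0.605 and 0.676 without 2 mice. With the erythroid sum its r was 0.788 in B6 and 0.823 in D2 mice, and 0.770 and 0.798 without 2 mice, so that it followed both lists. Cox5a, Cox6b1 and Ndufa4 were 3 of the 4 members in B6 and all 3 members in D2 mice with an adjusted permutation p under 0.05 for r with the platelet sum, Uqcr11 being the fourth in B6. Among all genes 7.14% in B6 and 9.19% in D2 mice had an r above 0.7 with the platelet sum.

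**Figure D4:**
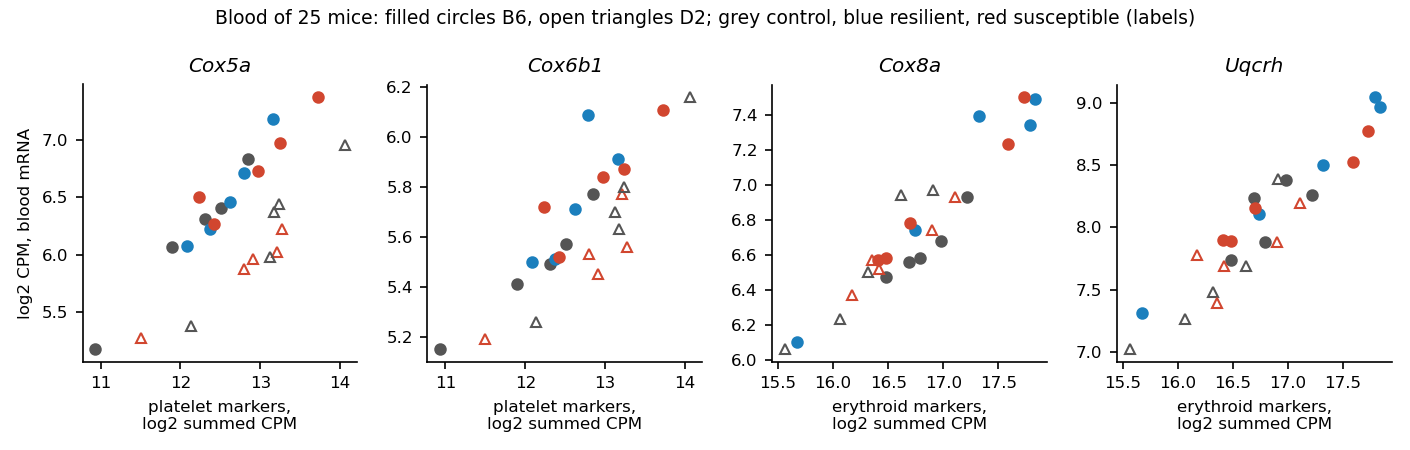
Log2 CPM of members against the log2 summed CPM of erythroid or platelet markers, 1 point per mouse, by strain and group. Uqcrh climbs with the erythroid sum (r = 0.958 in B6) and Cox5a with the platelet sum (r = 0.976 in B6, r = 0.943 in D2).

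In D2 blood susceptible mice were compared with controls. Title prefixes were not balanced over phenotype here. Mice with prefix ED6 were mostly controls and those with ED4 mostly susceptible, by label and by column name. Phenotype and prefix are therefore partly confounded in D2 blood. By label no member was called with limma and none had an unadjusted p under 0.05, against 1.57% of all genes called, and the median was -0.01. Weighting the mice in limma called 1 member, Sco1, lower, against 5.18% of all genes called lower. By the column names 3 members were called lower, Cox6b1, Cox5a and Ndufa4, against 4.39% of all genes called lower, with a median of -0.05 over the 32 members. Without both mice of contradictory phenotype 1 member was called lower, Cox6b1, against 2.70% of all genes called lower.

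Cox6b1 stood at 5.63, 5.26, 6.16, 5.70 and 5.80 in mice labelled control and at 5.53, 5.77, 5.56, 5.45 and 5.19 in mice labelled susceptible. The second value of each list belongs to the mouse with the contradictory column name, and exchanging these 2 separates the groups, at 5.63 to 6.16 and 5.19 to 5.56. The difference was -0.21 by label (SE 0.156, limma adjusted p = 0.999, exact permutation p = 0.254) and -0.41 by column name (SE 0.138, limma adjusted p = 0.686, exact permutation p = 0.00794). Leaving out both mice gave -0.39 (SE 0.159, limma adjusted p = 1.00, exact permutation p = 0.0286, the smallest that 4 against 4 mice allow). With the title prefix as a block the difference by column name was -0.414 (SE 0.166, limma adjusted p = 0.891).

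Cox5a behaved alike, at 6.37, 5.38, 6.95, 5.98 and 6.44 in mice labelled control and at 5.88, 6.02, 6.22, 5.96 and 5.28 in mice labelled susceptible. The difference was -0.35 by label (SE 0.288) and -0.61 by column name (SE 0.270, limma adjusted p = 0.686, exact permutation p = 0.0397). Ndufa4 differed by -0.49 by column name (SE 0.210, limma adjusted p = 0.686, exact permutation p = 0.0476). Groups overlapped for both genes. Platelet markers showed the same dependence, with none of 10 called by label (median -0.41), 7 of 10 lower by column name (median -0.81) and 1 of 10 lower without both mice (median -0.75). The summed platelet level was 12.13 to 14.06 in control and 11.50 to 13.27 in susceptible mice by label, and 13.12 to 14.06 and 11.50 to 13.27 by column name. Their part in these differences was not tested.

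The effect of susceptibility was then compared between strains by the interaction in limma. For 2 members, Cox5a and Cox6b1, the D2 effect was called lower than the B6 effect, against 4.57% of all genes, and the same number without both mice of contradictory phenotype, against 6.63%. For Cox5a it was 0.61 in B6 and -0.35 in D2 mice, a difference of -0.96 (SE 0.408, limma adjusted p = 0.918). For Cox6b1 it was 0.33 and -0.21, a difference of -0.55 (SE 0.220, limma adjusted p = 0.918). By column names 4 members were called, the further ones being Ndufa4 (-0.72) and Uqcr11 (-0.64), against 7.48% of all genes called lower, and Cox5a then differed by -1.22 (SE 0.382, limma adjusted p = 0.224). With the title prefix as a block none was called by label and 3 by column names (Cox5a, Cox6b1 and Ndufa4), against 6.66% of all genes called lower. By label neither was called without D2 control replicate 3. Cox5a also lost its call without B6 control replicate 2, B6 susceptible replicate 3 or D2 susceptible replicate 5. Of 10 platelet markers 8 had a lower effect in D2 by label (median -1.25) and all 10 by column name (median -1.61), and their part was not tested.

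The strains were also compared directly in control mice. Between D2 and B6 control blood 11 members were called, 7 lower (11.4% of all genes) and 4 higher (15% of all genes) in D2, and 9 of the 11 had an adjusted p under 0.05. Of all genes 26.4% were called and 15.5% had an adjusted p under 0.05. By column names 13 members were called, against 29.8% of all genes, and 13 without both mice of contradictory phenotype, against 28.3%. Unless column names are stated, the values of single members and markers in this comparison are by label. Complex IV contributed 5 of the 11, complex III 4, complex II 1 and Cox7a2l 1, and none came from the 7 assembly factors.

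Cox6a1, a small nuclear subunit near the dimer interface of complex IV, was 2.39-fold lower in D2. It lay at 7.09, 6.66, 6.81, 6.77 and 6.99 in B6 controls and at 5.43, 5.27, 5.84, 5.44 and 6.08 in D2 controls, without overlap (log2 difference -1.25, SE 0.252, limma adjusted p = 0.000844, exact permutation p = 0.00794). Susceptible D2 mice had 5.61, 5.59, 6.11, 5.36 and 5.65, also below every B6 control. Its promoter, shown above, held 2 separate stretches of NRF1 letters and an ETS match. No near-identical copy of Cox6a1 was found.

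Cox7a2l, which promotes the assembly of complex III with complex IV into supercomplexes, was higher in D2. B6 controls were nearly identical at 6.38, 6.35, 6.31, 6.31 and 6.32, and D2 controls stood at 6.93, 6.51, 7.05, 6.92 and 7.39, without overlap (log2 difference 0.63, SE 0.119, limma adjusted p = 0.000450). A near-identical copy covers 94.1% of its transcript, and the reads of both strains were aligned to the reference of the B6 lineage, so this count is uncertain.

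Sdhc, the second membrane anchor of complex II, measured 3.49, 3.29, 3.15, 3.23 and 3.45 in B6 controls and 2.96, 2.42, 2.79, 2.44 and 3.00 in D2 controls, a difference of -0.605 (SE 0.165, limma adjusted p = 0.0119). Uqcrc2, a core protein of complex III, lay at 6.20 to 6.44 in B6 and at 5.73 to 6.07 in D2 controls, a difference of -0.365 (SE 0.120, limma adjusted p = 0.0397). Cox4i1, the ubiquitous isoform of the largest nuclear complex IV subunit, was higher in D2 by 0.40 (SE 0.134, limma adjusted p = 0.0435). Both Uqcrc2 and Cox4i1 overlap an annotated gene on the opposite strand, and the strand setting of the read counting is not given in the sources used here. Such an overlap was annotated for 10 of the 32 members, also for Cox5a, Cox10, Cox6c and Uqcrb, so the same limit holds for their counts.

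Uqcrb of complex III (-0.725, SE 0.174, limma adjusted p = 0.00437), Cox7b (-1.04, SE 0.278, limma adjusted p = 0.0103), Cox7c (-0.65, SE 0.157, limma adjusted p = 0.00468) and Cox5b (-0.43, SE 0.124, limma adjusted p = 0.0184) were lower in D2 as well. Near-identical copies cover 90.5%, 46.0%, 32.9% and 57.8% of their transcripts. Uqcr11 and Uqcrc1 were called higher with an adjusted p above 0.05. All 6 members whose transcript is copied over more than 30% were among the 11 called between strains. Blood cell markers also differed between control mice of the strains, and their part was not tested. The summed level was 8.98 to 9.38 in B6 and 9.67 to 10.59 in D2 mice for 8 monocyte markers and 7.69 to 8.06 and 8.12 to 8.60 for 8 T cell markers, both without overlap. It was 10.93 to 12.85 and 12.13 to 14.06 for platelet markers, of which 7 of 10 were called higher in D2. By column names the platelet level of D2 controls was 13.12 to 14.06, without overlap with B6 controls. All 8 B cell and 4 of 8 NK cell markers were called lower in D2, and of 11 erythroid markers 5 were called lower and 2 higher.

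**Figure D5:**
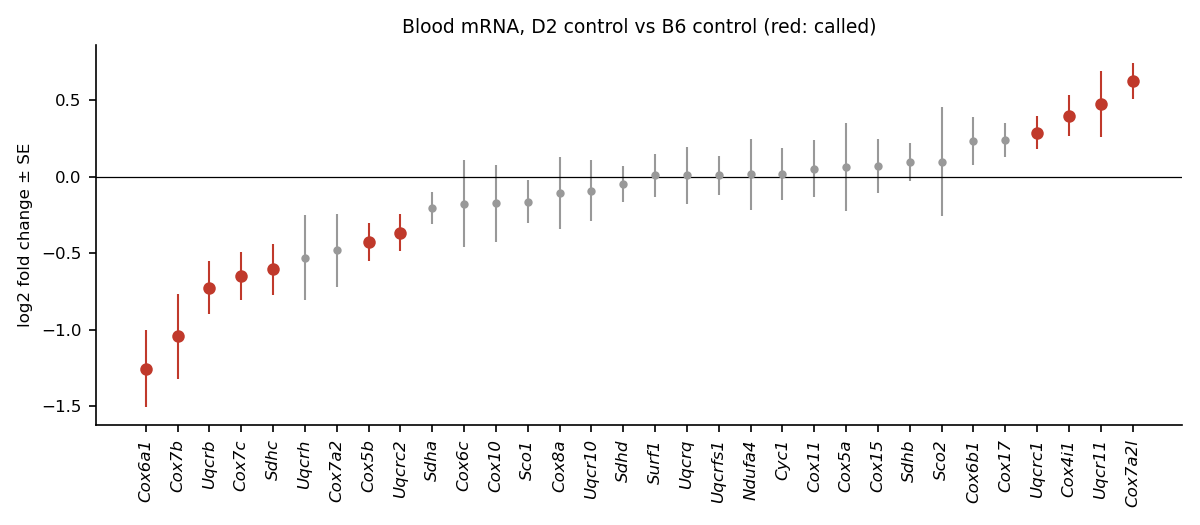
Log2 fold change with SE (vertical axis) of each of the 32 members between D2 and B6 control blood, 5 mice each by label, in ascending order, with called members in red. The 7 members called lower reach from Cox6a1 (-1.25) to Uqcrc2 (-0.365), and Cox7a2l is highest (0.63).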

How the data were processed

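AGO2-bound mRNA was sequenced from 14 BNST pools (stranded mRNA libraries) and blood mRNA from 25 mice. As given in the study's methods, the authors aligned reads to GRCm38 with STAR, counted them per gene with HTSeq, kept genes with at least 1 CPM in at least 3 BNST or 6 blood libraries and deposited voom-transformed values, that is log2 CPM. The handling of multiply mapped reads is not stated, and the authors' correction for cohort is not part of the deposited log2 values. Other deposited tables of the series were not used here.

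Whole reads were recovered from the log2 values (tolerance 0.0001 reads) to state depth and counts per member and for 1 alternative. The deposited values were scaled to effective library sizes of 0.644 to 1.53 times the recovered totals in blood. Tests were run on the deposited log2 CPM with limma 3.58.1 in R 4.3.3 (all groups of a table in 1 fit, mean-variance trend), with Benjamini-Hochberg adjustment over all genes. The call rule was that of the report (p 0.05, fold 1.2). Exact permutation tests enumerated every assignment of the compared samples to their groups, and correlations used 100000 permutations, which can give no p below 1e-05. The fitting code was tested on simulated data.

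Groups came from the sample labels. Replicate numbers shared between BNST groups were checked for pairing. Alternatives were leaving out each library, sample weights, quantile normalization, a constant variance, voom on recovered reads, a prior count of 2, a filter at a mean log2 value of 2, only the compared groups, blocks by replicate number or title prefix, and other groupings of the D2 mice. The separate fits by title prefix and the fit that compared the prefixes were chosen after seeing the data. So were the column-name groups combined with a prefix block or with a mouse left out. Members and gene lists were chosen with earlier results of these data known. Members were described sample by sample when called, at most 6 per comparison by p, with the smallest-p member of a group without calls. Near-identical copies were stretches of at least 75 bases with 97% identity elsewhere in GRCm38.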

Additional observations from a re-analysis of the deposited data

Results flagged for a closer look

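In the 5 D2 mice labelled susceptible Cox7c was 4.31 (log2 CPM) in replicate 3 and 4.01 to 4.09 in the others, a gap that set this mouse apart by Dixon's test. It was 1 of 93 sets of 4 or 5 libraries of a member examined in this way, and chance alone flags about 1 in 20.

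The effect of susceptibility differed between strains for Cox5a (-0.96, D2 minus B6, limma adjusted p = 0.918) and Cox6b1 (-0.55, limma adjusted p = 0.918), at unadjusted p under 0.05. Without D2 control replicate 3 neither was called, and Cox5a lost its call on leaving out any of 3 other mice as well.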

How the results depend on the processing

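The calls of Cox8a, Uqcrfs1, Cox5a and Sdhd in BNST pools held under each of 8 other settings and whichever of the 14 pools was left out. Leaving out 1 library gave 4 to 6 members called between resilient and control pools, 4 to 7 between susceptible and control pools and 1 to 2 between susceptible and resilient pools. BNST pools with the same replicate number had correlations of deviations of -0.172 to 0.14 over 13 pairs, 2 of them over 0.1. Such correlations over few pools cannot exclude a shared cohort, and the study adjusted these data for experimental cohort. With the replicate block 5, 6 and 1 members were called, Cox10 no longer being called between resilient and control pools. Shares of all genes called with this block or without 1 pool are not given here. These counts therefore cannot be set against a background.

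In B6 blood the 2 members called between resilient and control mice became 4 with sample weights (3.88% of all genes called), 1 with voom on recovered reads (1.55%), 1 with only the compared groups (1.5%), 0 with the title prefix block, 12 with prefix EC3 alone and 1 with EC4 alone, where Uqcr11 (-0.044) and Sco1 (0.11) turned direction. Leaving out 1 mouse gave 0 to 9, with 9 without resilient replicate 5 (8.61% of all genes called) and 0 without resilient replicate 2 or 3 (1.43% and 1.95%). The 2 called between susceptible and control mice became 0 without the mean-variance trend, 1 with sample weights, 1 with quantile normalization, 0 with the title prefix block, 0 with EC3 alone, and 0 to 3 on leaving out 1 mouse, with 0 without control replicate 2 or 5 or susceptible replicate 3 or 5. Between susceptible and resilient mice the count of 0 became 10 with EC3, 14 with EC4 and 0 to 1 on leaving out 1 mouse.

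In D2 blood 0 became 1 with sample weights, 3 by column names, 1 without both contradictory mice, 1 by column names with the prefix block and 0 to 1 on leaving out 1 mouse (1 to 4 by column names). The 2 members that differed between strains became 0 with the title prefix block, 4 by column names, 3 by column names with that block and 0 to 2 on leaving out 1 mouse. Between control mice of both strains 9 to 13 members were called, and the title prefix block could not be fitted because each prefix belongs to 1 strain. The causes were not tested. Where no share of all genes called is printed for a blood setting, a change in the members cannot be told from a change in the background. Quantile normalization moved the B6 calls over all genes between susceptible and control mice from 390 higher and 199 lower to 292 and 248, between susceptible and resilient mice from 147 and 119 to 98 and 176, in D2 mice from 89 and 117 to 169 and 137, and those of the strain difference from 105 and 598 to 212 and 499. Low reads limit Cox8a and Uqcrfs1 in the BNST, and 5 mice per group allow no exact p below 0.00794, and 4 per group none below 0.0286.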
